A study of Homo sapiens with 4 samples.

Results

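The urea cycle and amino acid catabolism set holds 34 genes: the enzymes and carriers of the urea cycle, enzymes of glutamine, glutamate and aminotransferase metabolism, and the breakdown pathways of tyrosine, tryptophan, serine, histidine, proline and the branched-chain amino acids. Its members, and the lists of other genes read below, were chosen by name with earlier results of these data known. A gene was read where the array annotation paired a probe set with that gene alone. This gave values for 31 of the 34 genes, out of 19775 genes measured. GLS2, GPT2 and SDS were not analysed here. Messenger RNA was measured on HG-U133 Plus 2.0 GeneChips in HepG2, a widely used hepatoma cell line of human origin. The study asked how expression responds to depletion of LSD1 (gene KDM1A), an enzyme that removes methyl groups from histones. All cells grew in medium with 25 mM glucose and 10% serum, received siRNA through the RNAiMAX reagent at about 50% confluence, and were harvested after 4 days. The control group (2 arrays) received an siRNA against GL3, and the LSD1 knockdown group (2 arrays) received siRNA-1 on one array and siRNA-2 on the other. A hepatoma line is a model of hepatocytes and not normal liver. The labels do not describe the arrays of a group as separate cultures, so p-values here rest on a control spread that may be only technical. The comparison of 2 knockdown arrays with 2 controls treats the siRNAs as replicates. Its standard errors and p-values therefore also hold the difference between the siRNAs.

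The urea cycle turns ammonia into urea. It starts in the mitochondrion, where carbamoyl phosphate is made and joined to ornithine, and ends in the cytosol, where arginase splits arginine into urea and ornithine. Amino acid breakdown feeds it: aminotransferases collect nitrogen on glutamate and aspartate, glutamate dehydrogenase releases ammonia, and glutamine synthetase binds ammonia that escapes the cycle. The carbon skeletons go on to sugar, ketone body and energy metabolism. In liver these steps are zoned, with the urea cycle around the portal vein and glutamine synthetase around the central vein. HepG2 cells are known to express little OTC and ARG1 and to make little urea through the cycle.

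The values, taken to be log2, are expression values that the authors centred per probe set on the median of the 4 arrays, so a value of 1 means 2-fold above that median, and only differences between arrays remain. A rough level was read from the numeric precision of each value, which differs for log2 levels of 8 or above, 4 to 8 and below 4 and follows the dimmest of the arrays. By that reading 18 of the 31 genes lay at 8 or above (58.1%, against 37.1% of all genes) and 11 at 4 to 8. Below 4 lay 2, OTC and ARG1 (6.45%, against 26.6% of all genes). The shares of all genes set beside the members below are not matched for level. A dimmer probe set can show the coarser precision by chance, and reading each gene by its brightest class favours such cases. How often this happened was not estimated, so the classes and the choice of probe set are uncertain. KDM1A read 1.23 and 1.17 in control cells, -1.55 under siRNA-1 and -1.17 under siRNA-2, a difference of -2.56 ± 0.16 (standard error, SE, n = 2 arrays per group, limma adjusted p = 0.0861). The spread of all probe sets was larger with siRNA-2 (SD 0.384) than with siRNA-1 (SD 0.197) or on the control arrays (SD 0.164 and 0.154). Technical controls moved along the same split of arrays. The hybridization spike-ins, added in equal amount to every array, averaged -0.69 and -0.61 for control RNA and 0.61 and 0.65 for knockdown RNA. The poly-A spike-ins moved less, at -0.37 and -0.04 for control RNA and 0.14 and 0.05 for knockdown RNA. The 5' minus 3' difference of the ACTB control, which varies with RNA integrity and labelling, was 0.34 and 0.23 for control RNA and -0.26 and -0.38 for knockdown RNA. For GAPDH it was 0.13 and 0.04 for control RNA and -0.04 and -0.14 for knockdown RNA. With centred values these differences only compare arrays and give no 5' to 3' ratio. The part of these measures in the results below was not tested.

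All 12 hepatocyte markers were measured and lay at 8 or above. On both knockdown arrays 10 of the 12 were above both controls (83.3%, against 23.7% of all genes) and 0 were below (against 25.4%), with a median difference of 0.37. In the limma comparison of siRNA-2 alone with the controls 6 rose (50%, against 13.7% of all genes). SERPINA1 was higher by 0.48 ± 0.11, APOA1 by 0.47 ± 0.13, HP by 0.73 ± 0.21 and FGB by 0.37 ± 0.12. Of 6 cholangiocyte markers 2 lay above both controls, EPCAM (1.11) and SOX9 (0.29), and 2 below, CFTR (-0.48) and KRT7 (-0.18). Of 8 fibroblast and stellate cell markers 2 lay above, COL1A1 (1.88) and ACTA2 (1.20), and 2 below, DCN (-0.27) and LRAT (-0.26). Of 6 endothelial markers 1 lay above both controls, STAB2 (0.09), and 2 below, PECAM1 (-0.54) and LYVE1 (-0.92), while CDH5 read 0.11, and 4 of the 6 had a level below 4. Of 6 leukocyte markers 1 lay above, CD14 (1.31), and 0 below, and CD3E read -0.21, LYZ 0.16 and PTPRC 0.04. CFTR, CD3E and PTPRC also had a level below 4. The shares above and below were 33.3% and 33.3% for cholangiocyte, 25% and 25% for fibroblast and stellate, 16.7% and 33.3% for endothelial and 16.7% and 0% for leukocyte markers, beside the same 23.7% and 25.4% of all genes. The part of these markers in the results was not tested. Summed levels cannot be given because the values are centred, and in a bulk culture fewer cells of a type and less RNA per cell cannot be told apart.

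Promoter sequences are shown for 4 of the genes that differed by more than 0.5 log2 between the groups and held a match to a motif searched. These are CPS1, which opens the urea cycle, ARG2, which splits arginine and differed in the opposite direction, HPD of tyrosine breakdown and HAAO of tryptophan breakdown. They are the 250 bases before the RefSeq start site on the gene's strand (GRCh38.p14). CPS1 is at chr2:210519468-210519717 on the plus strand, ARG2 at chr14:67619670-67619919 on the plus strand, HPD at chr12:121888612-121888861 on the minus strand and HAAO at chr2:42792584-42792833 on the minus strand. Capitals mark the match.
CPS1: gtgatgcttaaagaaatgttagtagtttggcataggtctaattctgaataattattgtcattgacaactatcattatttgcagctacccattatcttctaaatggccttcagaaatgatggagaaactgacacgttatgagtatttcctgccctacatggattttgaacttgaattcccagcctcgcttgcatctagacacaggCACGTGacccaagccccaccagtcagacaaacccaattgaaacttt
ARG2: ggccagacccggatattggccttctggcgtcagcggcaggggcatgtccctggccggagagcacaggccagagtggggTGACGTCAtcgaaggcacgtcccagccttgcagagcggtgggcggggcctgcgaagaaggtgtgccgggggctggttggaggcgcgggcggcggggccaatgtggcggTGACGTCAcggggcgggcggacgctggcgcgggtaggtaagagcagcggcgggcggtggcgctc
HPD: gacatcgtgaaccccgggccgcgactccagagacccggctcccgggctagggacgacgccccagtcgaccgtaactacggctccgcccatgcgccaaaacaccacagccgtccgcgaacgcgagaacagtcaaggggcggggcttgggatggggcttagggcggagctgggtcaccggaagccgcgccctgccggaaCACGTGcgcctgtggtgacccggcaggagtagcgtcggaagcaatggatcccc
HAAO: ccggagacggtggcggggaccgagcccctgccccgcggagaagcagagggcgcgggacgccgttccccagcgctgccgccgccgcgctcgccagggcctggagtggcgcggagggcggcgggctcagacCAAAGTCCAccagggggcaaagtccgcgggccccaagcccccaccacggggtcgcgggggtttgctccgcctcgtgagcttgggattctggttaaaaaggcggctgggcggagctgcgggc
The capitals in CPS1 and HPD are the E-box CACGTG, those in ARG2 the cyclic AMP response element TGACGTCA, and those in HAAO the HNF4 motif CAAAGTCCA. RefSeq gives 3 start sites for CPS1 and 2 for HPD, the match lies at 1 of them in each gene, and the array does not tell which site is used. ARG2 and HAAO have 1 start site each.

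Windows of 300 bases, 250 before to 50 after the start, were found for 28 of the 34 genes, as 39 windows, and were read on both strands for exact matches. Windows were not found for GPT, GPT2, TAT, HGD, PRODH and BCAT2. The E-box CACGTG occurred in 5 genes, or 17.9%, against 8.77% of the 27305 genes with a window. With positions counted from the start site to the motif's first base, these were CPS1 (-46), ASS1 (-71), SLC25A13 (-154), HPD (-53) and BCAT1 (15, after the start). The cyclic AMP response element TGACGTCA occurred in ARG2 alone, at -172 and -64 (3.57% of the set, 2.25% of all genes), and its variant TGACGTAA in none (0.513% of all genes). The HNF4 motif CAAAGTCCA occurred in HAAO, at -121 (3.57%, against 0.472%). The C/EBP motifs TTGCGCAA and TTGCACAA occurred in none of the set, against 0.172% and 0.96% of all genes. On the chosen probe sets, the genes with an E-box did not share a direction. CPS1, ASS1, SLC25A13 and HPD read higher on both knockdown arrays and BCAT1 lower on both. A match describes letters in a window and not a bound site.

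Across the set, genes went in both directions. On both knockdown arrays 13 of the 31 genes lay above both controls (41.9%, against 23.7% of all genes), 7 lay below both (22.6%, against 25.4%) and 11 overlapped. Absolute differences above 0.5 log2, a limit set after values were seen, were found for 10 genes (32.3%, against 11.9% of all genes). CPS1, ASS1, GLUD1, HPD, GSTZ1 and HAAO were higher by more than that, and ARG2, NAGS, GOT2 and BCAT1 lower. The median difference of the set was 0.05, against 0.00 over all genes. With limma, 2 arrays against 2 and Benjamini-Hochberg adjustment over all genes, 0 members passed an adjusted p of 0.05, where 1 gene of 19775 did (0.00506%). The smallest adjusted p of a member was 0.207, for HPD. At an unadjusted p under 0.05 there were 8 members, 6 higher and 2 lower (25.8%, against 14.7% of all genes).

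**Figure D1:**
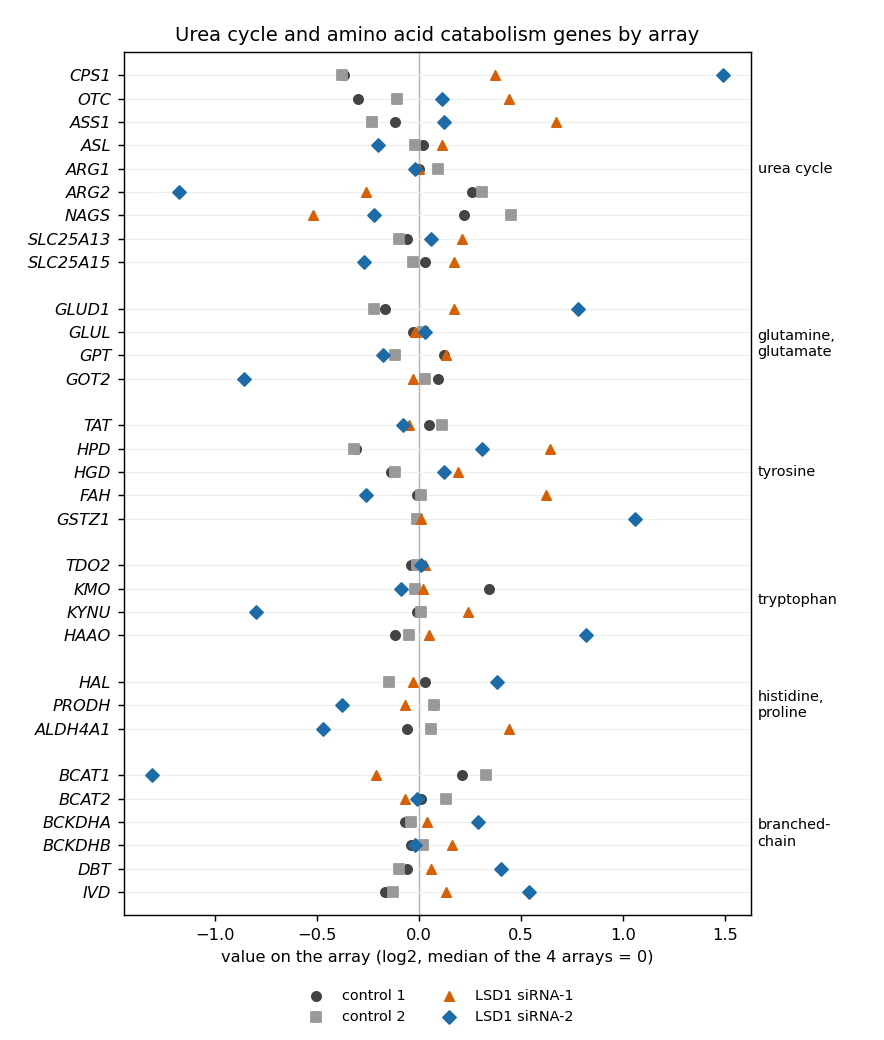
Centred log2 value of each of the 31 genes on each of the 4 arrays, 1 row per gene, ordered by pathway step, with control and knockdown arrays marked apart. The siRNA-2 array holds the extremes, from -1.31 for BCAT1 to 1.49 for CPS1, and the control arrays lie furthest apart for KMO, at 0.34 and -0.02.

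Each siRNA was then set against the controls in a limma model with 3 groups, in which the spread of the 2 controls also stands for that of the single knockdown arrays. With siRNA-2, 7 members rose (22.6%, against 13.7% of all genes) and 5 fell (16.1%, against 10.5%). CPS1, GLUD1, HPD, GSTZ1, HAAO, DBT and IVD rose, and ARG2, GOT2, KYNU, PRODH and BCAT1 fell. With siRNA-1, 0 members and 0 genes passed in either direction (0% of all genes higher and 0% lower), with a smallest adjusted p of 0.0807 for a member and 14 members at an unadjusted p under 0.05, 11 higher and 3 lower, where 5339 genes (27% of all) were. The counts of 0 depend on the setting. With each array's median set to 0, 817 genes passed with siRNA-1, and without dim genes 623 did, in both cases with CPS1, ASS1, HPD and FAH among them, all 4 higher. Quantile normalization of the centred values, which gives all arrays the same spread, left 0 members past the threshold with siRNA-2. The share of all genes past it in that setting is not given, so this count says nothing particular about the set. Between the siRNAs, 3 members were higher with siRNA-2 (9.68%, against 4.43% of all genes) and 6 lower (19.4%, against 3.07%). The comparisons of each siRNA share the control arrays.

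**Figure D2:**
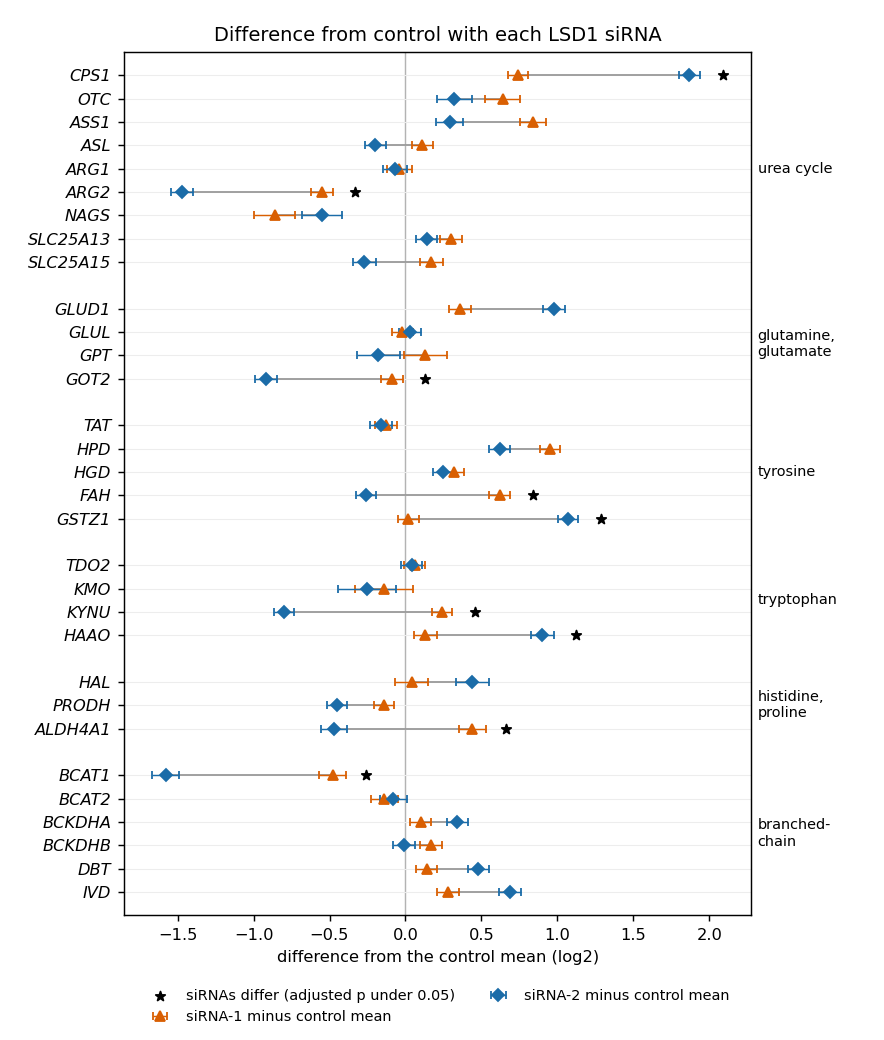
Difference from the control mean (log2) with siRNA-1 (triangles) and siRNA-2 (diamonds) for each gene, with the SE of the 3-group limma fit as bars and stars where the siRNAs differ at an adjusted p under 0.05. CPS1, GSTZ1 and HAAO lie further to the right with siRNA-2, and ARG2, GOT2, FAH, KYNU, ALDH4A1 and BCAT1 further to the left.

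In the urea cycle the enzyme that commits ammonia was higher and the mitochondrial arginase lower. CPS1, which makes carbamoyl phosphate from ammonia in mitochondria, read -0.37 and -0.38 in control cells, 0.37 under siRNA-1 and 1.49 under siRNA-2. Both knockdown arrays were above both controls, and the siRNA-2 array stood highest. The difference of 1.31 ± 0.39 (a 2.47-fold higher level, adjusted p = 0.294) did not pass, while the rise of 1.87 with siRNA-2 did (SE 0.067, adjusted p = 0.0146). A second CPS1 probe set read 1.50, with 0.84 under siRNA-1 and 2.15 under siRNA-2. NAGS, which makes the N-acetylglutamate that CPS1 needs as its activator, read 0.22 and 0.45 in control cells, -0.52 under siRNA-1 and -0.22 under siRNA-2. CPS1 and its activator's enzyme thus differed in opposite directions on both knockdown arrays. For NAGS the difference was -0.70 ± 0.16 (adjusted p = 0.243), and it did not pass with either siRNA.

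The middle enzymes of the cycle gave smaller differences. ASS1, which joins citrulline to aspartate, read -0.12 and -0.23 in control cells, 0.67 under siRNA-1 and 0.12 under siRNA-2. It was above both controls on both arrays, with the higher value on the siRNA-1 array, and differed by 0.57 ± 0.21 (adjusted p = 0.345). Its probe set is of a class that can share probes with related sequences, and ASS1 has near-identical pseudogenes, so this value is uncertain. OTC, which makes citrulline from carbamoyl phosphate and ornithine, was higher by 0.48 ± 0.16 (adjusted p = 0.312) but lay below 4. ASL, which releases arginine, differed by -0.04 ± 0.14, with 0.11 under siRNA-1 and -0.20 under siRNA-2. SLC25A13, the mitochondrial carrier that exports aspartate for ASS1, read 0.22 ± 0.11 higher on its chosen probe set, with -0.05 and 0.03 on its others. SLC25A15, which carries ornithine and citrulline across the inner mitochondrial membrane, read -0.05 ± 0.18.

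Arginase has a pair of forms. ARG1, the cytosolic form that closes the cycle in liver, lay below 4 on all 4 of its probe sets, with differences of -0.05, -0.02, 0.12 and 0.17. ARG2, the mitochondrial form, read 0.26 and 0.31 in control cells, -0.26 under siRNA-1 and -1.18 under siRNA-2. Both knockdown arrays lay below both controls, with the siRNA-2 array lowest. The difference was -1.01 ± 0.33, a 2.01-fold lower level (adjusted p = 0.308). With siRNA-2 ARG2 fell by 1.47 (SE 0.071, adjusted p = 0.0146), against -0.55 with siRNA-1, which did not pass. Its second probe set gave -0.75, with -0.33 under siRNA-1 and -1.16 under siRNA-2. Over the 9 urea cycle genes the median difference was -0.04, or 0.06 with the mean of all probe sets of a gene. Above both controls lay 4 genes (44.4%, against 23.7% of all genes) and below them 2 (22.2%, against 25.4%).

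Among the genes of glutamine and glutamate, glutamate dehydrogenase was higher and the mitochondrial aspartate aminotransferase lower. GLUD1, which releases ammonia from glutamate, read -0.17 and -0.22 in control cells, 0.17 under siRNA-1 and 0.78 under siRNA-2. The groups did not overlap, and the siRNA-2 array was highest. The difference was 0.67 ± 0.23 (adjusted p = 0.319), and GLUD1 rose by 0.98 with siRNA-2 (SE 0.072, adjusted p = 0.0167). A second GLUD1 probe set read 0.63, and both can share probes with GLUD2 or pseudogene copies, so the source copy is uncertain. GOT2, which moves nitrogen between glutamate and aspartate in mitochondria, read 0.09 and 0.03 in control cells, -0.03 under siRNA-1 and -0.86 under siRNA-2. Nearly the whole difference of -0.51 ± 0.30 (adjusted p = 0.489) came from the siRNA-2 array, where GOT2 fell by 0.92 (SE 0.073, adjusted p = 0.0178), and the siRNA-1 array lay just below the controls (-0.09). GPT, the alanine aminotransferase, gave 0.13 under siRNA-1 and -0.18 under siRNA-2.

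GLUL, glutamine synthetase, depended on the probe set. The chosen one read 0.01 ± 0.10, with all arrays between -0.03 and 0.03. The other GLUL probe sets, which also lay at 8 or above, read 0.33, 0.65 and 0.42. On the siRNA-2 array these 3 gave differences of 0.70, 0.87 and 0.96, and on the siRNA-1 array -0.05, 0.43 and -0.11. The gene's direction is therefore not settled by these data.

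**Figure D3:**
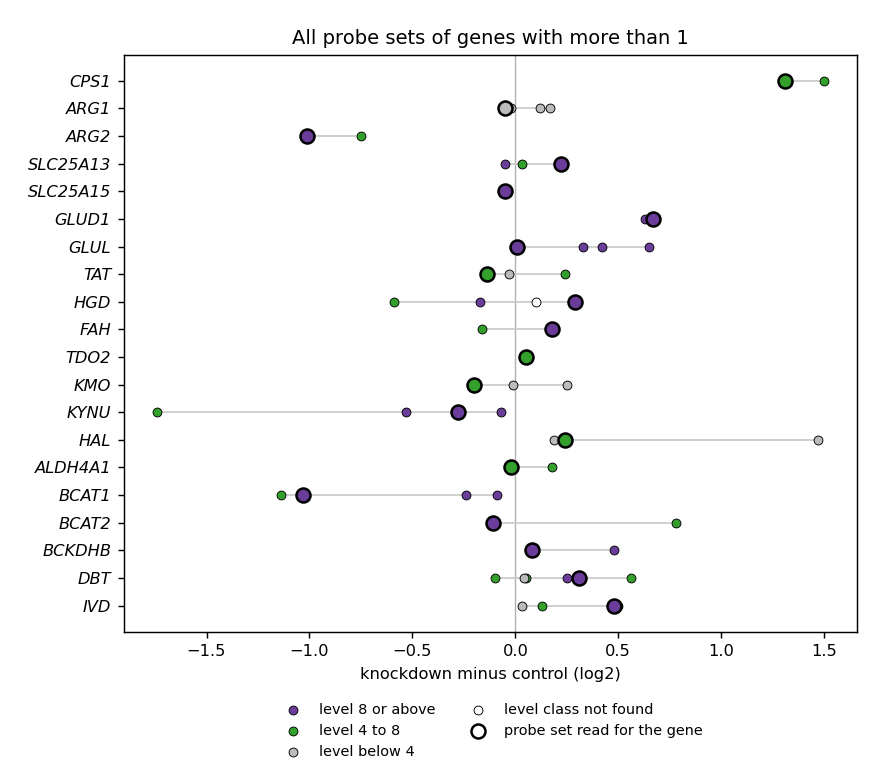
Knockdown minus control difference (log2) of every probe set of the 20 genes with more than 1, coloured by rough level, with the probe set read for the gene ringed. The sets agree for CPS1, ARG2 and GLUD1, and lie on both sides of 0 for 9 genes, among them HGD, BCAT2 and FAH.

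Of 71 probe sets in all, 11 genes had 1 and 20 had more, and for 9 genes the probe sets differed in sign. Besides ARG1, these were SLC25A13, TAT, HGD, FAH, KMO, ALDH4A1, BCAT2 and DBT. The values of the other probe sets are given with each of these genes.

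Tyrosine breakdown had a median difference of 0.29 over 5 genes, but of 0.02 with the mean of all probe sets of a gene. Of the 5, 3 lay above both controls (60%, against 23.7% of all genes) and 1, TAT, below both (20%, against 25.4%). These shares rest on 5 genes, each on its chosen probe set, and were not tested. HPD, the dioxygenase that makes homogentisate, read -0.31 and -0.32 in control cells, 0.64 under siRNA-1 and 0.31 under siRNA-2. Both knockdown arrays stood above both controls, and HPD had the smallest p of the set. The difference was 0.79 ± 0.15, a 1.73-fold higher level (adjusted p = 0.207). With siRNA-2 HPD rose by 0.62 (SE 0.067, adjusted p = 0.0237), and with siRNA-1 it was higher by 0.95 (adjusted p = 0.0807). GSTZ1, the maleylacetoacetate isomerase of the next to last step, read -0.01 in both control samples, 0.01 under siRNA-1 and 1.06 under siRNA-2. The siRNA-1 array was thus level with the controls, and the difference of 0.54 ± 0.37 (adjusted p = 0.543) came from the siRNA-2 array, where GSTZ1 rose by 1.07 (adjusted p = 0.0149).

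FAH, which splits fumarylacetoacetate at the end of the pathway, read -0.01 and 0.01 in control cells, 0.62 under siRNA-1 and -0.26 under siRNA-2. The siRNAs lay on opposite sides of the controls and differed by -0.89 (SE 0.078, adjusted p = 0.0407). Its dimmer probe set showed the same order, with 0.17 under siRNA-1 and -0.48 under siRNA-2. HGD, the homogentisate dioxygenase, read 0.29 ± 0.10 on its chosen probe set, with 0.32 and 0.25 for the siRNAs, but -0.17, 0.10 and -0.59 on the others. TAT, the aminotransferase that opens the pathway, read -0.14 ± 0.10, with 0.24 and -0.03 on its other probe sets.

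In tryptophan breakdown the larger differences lay on the siRNA-2 array, and in opposite directions. HAAO, which makes the precursor of quinolinate, read -0.12 and -0.05 in control cells, 0.05 under siRNA-1 and 0.82 under siRNA-2. It lay above both controls on both arrays, narrowly with siRNA-1. The difference was 0.52 ± 0.28 (adjusted p = 0.461), with a rise of 0.90 with siRNA-2 (SE 0.076, adjusted p = 0.0189). KYNU, the kynureninase that stands just before HAAO in the main route, read -0.01 and 0.01 in control cells, 0.24 under siRNA-1 and -0.80 under siRNA-2. The groups overlapped, with the siRNAs on either side of the controls. KYNU fell by 0.80 with siRNA-2 (SE 0.068, adjusted p = 0.0193), and the siRNAs differed by -1.04 (adjusted p = 0.0405). The other KYNU probe sets differed from the controls by -3.42, -1.06 and -0.47 with siRNA-2 and -0.06, -0.01 and 0.34 with siRNA-1. TDO2, the dioxygenase that opens the pathway in liver, read 0.05 ± 0.10. KMO, the hydroxylase before KYNU, read -0.20 ± 0.16, with -0.01 and 0.25 on its other probe sets, and its controls were 0.34 and -0.02.

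On the chosen probe sets, 0 of the 3 genes of histidine and proline breakdown lay above both controls on both arrays (23.7% of all genes did). Below both controls lay 1, PRODH (33.3%, against 25.4%). With 3 genes these shares cannot be told from those of all genes. HAL, the lyase that opens histidine breakdown, gave 0.04 under siRNA-1 and 0.44 under siRNA-2 on its chosen probe set. A dimmer HAL probe set, below 4, read -0.42 and -0.42 in control cells, 0.42 under siRNA-1 and 1.67 under siRNA-2, a difference of 1.47, and the remaining one gave 0.19. PRODH, which oxidizes proline, fell by 0.45 with siRNA-2 (SE 0.067, adjusted p = 0.0358) and read -0.14 with siRNA-1. ALDH4A1, which takes the product of PRODH on to glutamate, read -0.06 and 0.06 in control cells, 0.44 under siRNA-1 and -0.47 under siRNA-2. As with FAH and KYNU, the siRNA-1 array lay above the controls and the siRNA-2 array below. The siRNAs differed by -0.91 (SE 0.101, adjusted p = 0.0459), and a second ALDH4A1 probe set gave 0.48 and -0.12.

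Of the branched-chain genes, the cytosolic aminotransferase was lower and the later mitochondrial enzymes were mostly higher. BCAT1, which removes the amino group in the cytosol and is known for its activity in tumours, read 0.21 and 0.33 in control cells, -0.21 under siRNA-1 and -1.31 under siRNA-2. Both knockdown arrays lay below both controls. The difference was -1.03 ± 0.39, a 2.04-fold lower level (adjusted p = 0.343), and BCAT1 fell by 1.58 with siRNA-2 (SE 0.087, adjusted p = 0.0146) against -0.48 with siRNA-1. The other BCAT1 probe sets read -1.14, -0.24 and -0.09, all lower with siRNA-2 (-1.66, -0.59 and -0.44), while with siRNA-1 they read -0.62, 0.11 and 0.27. BCAT2, the mitochondrial form, read -0.11 ± 0.11 on the chosen probe set and 0.78 on a dimmer one, which gave 0.36 under siRNA-1 and 1.19 under siRNA-2.

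The branched-chain keto acid dehydrogenase takes the products of both aminotransferases. Its subunit genes BCKDHA and BCKDHB read 0.22 ± 0.13 and 0.08 ± 0.12, and a second BCKDHB probe set read 0.48. DBT, the core subunit of the complex, read 0.31 ± 0.15 and rose by 0.48 with siRNA-2 (SE 0.070, adjusted p = 0.0344). Its other probe sets gave 0.56, 0.25, 0.05, 0.04 and -0.10. IVD, which acts next on the leucine skeleton, read -0.17 and -0.13 in control cells, 0.13 under siRNA-1 and 0.54 under siRNA-2. Both knockdown arrays were above both controls, by 0.48 ± 0.17 (adjusted p = 0.326), and IVD rose by 0.69 with siRNA-2 (SE 0.071, adjusted p = 0.0231). The other IVD probe sets read 0.50, 0.13 and 0.03. The median of the 6 branched-chain genes was 0.15, or 0.25 with the mean of all probe sets of a gene.

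Other genes of amino acid metabolism around the set were read from lists. Of 81 listed, 74 were measured, with a median difference of 0.11. On both arrays 31 lay above both controls (41.9%, against 23.7% of all genes) and 14 below (18.9%, against 25.4%). In the comparison of knockdown with control 0 passed the limma test, with 16 at an unadjusted p under 0.05 (21.6%, against 14.7% of all genes). With siRNA-2 20 rose (27%, against 13.7% of all genes) and 7 fell (9.46%, close to the 10.5% of all genes). In the list of other branched-chain genes 12 of 21 lay above both controls (57.1%) and 2 below (9.52%), and 9 rose (42.9%) and 1 fell (4.76%) with siRNA-2. MCCC1, a subunit of the leucine pathway carboxylase, read 0.64 ± 0.13 and rose by 0.78 with siRNA-2. ACADSB, which acts on isoleucine, read 0.43 ± 0.10, AUH of leucine breakdown 0.44 ± 0.11, and MMUT, the mutase at the end of valine and isoleucine breakdown, 0.59 ± 0.18, and each of the 3 rose with siRNA-2.

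The arginine, ornithine and creatine list had 0 of 13 genes above both controls (23.7% of all genes were) and 4 below (30.8%, near the 25.4% of all genes). These 4 were ODC1, which makes putrescine from ornithine (-0.49 ± 0.13), its regulator AZIN1 (-0.39 ± 0.15), GATM of creatine synthesis (-0.25 ± 0.12) and DDAH1, which clears methylated arginines (-0.41 ± 0.20). With siRNA-2, 3 genes of that list fell (23.1%, against 10.5% of all genes), ODC1 by 0.62, DDAH1 by 0.66 and ALDH18A1, which makes the precursor of proline and ornithine from glutamate, by 1.33. ALDH18A1 is named for that count after its values were seen. It read 0.43 with siRNA-1, so its groups overlapped.

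In the glutamate, asparagine and alanine list 7 of 12 genes lay above both controls (58.3%, against 23.7% of all genes) and 3 below (25%, against 25.4%). With siRNA-2 6 rose (50%, against 13.7%) and 2 fell (16.7%, against 10.5%). AGXT2, a mitochondrial aminotransferase, read -0.67 and -0.43 in control cells, 0.43 under siRNA-1 and 1.17 under siRNA-2, a difference of 1.36 ± 0.28. ABAT, which breaks down GABA, read 0.64 ± 0.13, PHGDH of serine synthesis 0.33 ± 0.10 and GOT1, the cytosolic counterpart of GOT2, -0.31 ± 0.10. Both aspartate aminotransferase genes were thus below the controls on both knockdown arrays.

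Of 15 other aromatic amino acid genes, 5 lay above both controls (33.3%, against 23.7% of all genes), 4 lay below (26.7%, against 25.4%), and 1 rose with siRNA-2 (6.67%, against 13.7%), AADAT (0.46). Over both arrays AADAT read 0.33 ± 0.13, NADSYN1 0.22 ± 0.10, DDC 0.48 ± 0.24 and KYAT1 -0.19 ± 0.10. The lysine, histidine, proline and threonine list had 7 of 13 above (53.8%) and 1 below (7.69%), and 4 rose (30.8%) and 1 fell (7.69%) with siRNA-2. HOGA1, of hydroxyproline breakdown, read 0.76 ± 0.10, DAO 0.62 ± 0.13, AASS of lysine breakdown 0.45 ± 0.12 and GCAT of threonine breakdown -0.35 ± 0.10.

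**Figure D4:**
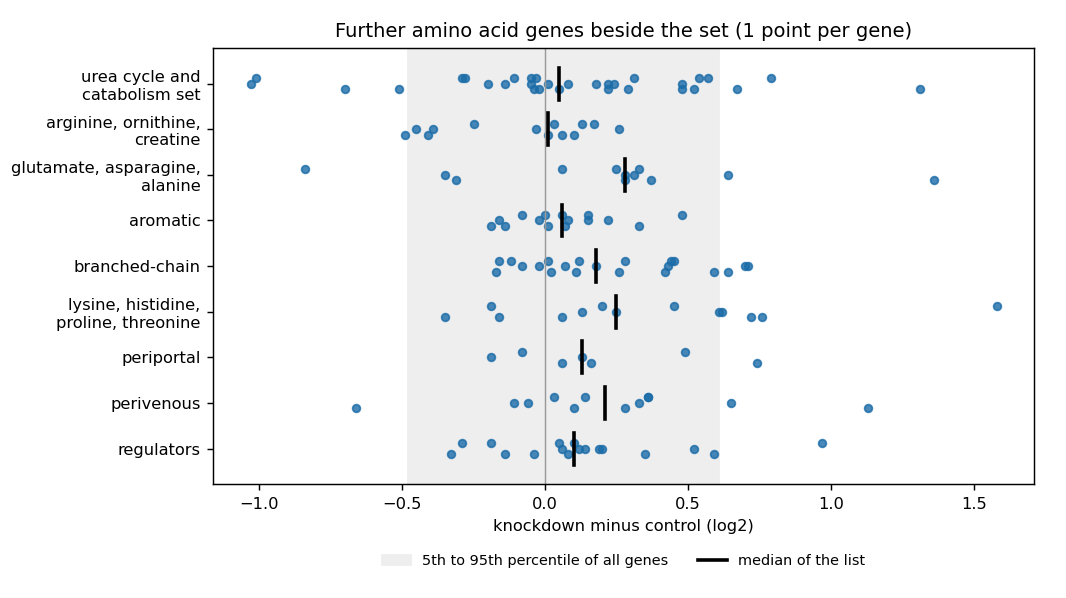
Knockdown minus control difference (log2) of the 31 genes of the set and of each list of genes around it, 1 point per gene, with the list's median as a bar. The shaded band spans the 5th to the 95th percentile of all genes, -0.48 to 0.61.

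Genes that mark the zones of the liver lobule were read as well. Of 7 periportal genes 2 lay above both controls (28.6%, against 23.7% of all genes) and 1 below (14.3%, against 25.4%). GLDC of glycine breakdown read 0.74 ± 0.22, PCK1 -0.19 ± 0.11, G6PC1 0.49 ± 0.28 and CYP2F1 0.16 ± 0.14. Of these, PCK1, G6PC1 and CYP2F1 had a level below 4. Of 12 perivenous genes 5 lay above (41.7%) and 1 below (8.33%). RHBG, an ammonia channel, read -0.44 and -0.59 in control cells, 0.44 under siRNA-1 and 0.78 under siRNA-2, a difference of 1.13 ± 0.16. CYP27A1 read 0.65 ± 0.17, LGR5 0.36 ± 0.10 and ZNRF3 -0.66 ± 0.26. Of 17 regulators of amino acid catabolism, 7 lay above both controls (41.2%) and 2 below (11.8%). With siRNA-2 3 rose (17.6%) and 2 fell (11.8%), close to the 13.7% and 10.5% of all genes. CEBPB read 0.35 ± 0.13, PPARGC1A 0.52 ± 0.21, CREB3L3 0.97 ± 0.44 and FOXA1 0.59 ± 0.30, and CREB3L3 had a level below 4. In the limma comparison of knockdown with control 0 of the regulators passed, with 1 at an unadjusted p under 0.05 (5.88%, against 14.7% of all genes).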

How the data were processed

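Messenger RNA of HepG2 cells was measured on 4 arrays. The deposited values, taken to be log2, were made with RMA, per the submitters' processing notes; the log base, the software version and the set of arrays normalized jointly are not stated in the sources at hand. The values show that the authors also centred each of the 54675 probe sets on the median of the 4 arrays (largest remaining median 5.0e-07), which removes levels. They were used as deposited. Precision is limited by the small number of arrays, which carry no read depth.

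Probe sets with 1 annotated gene (41091) gave 19775 genes, 19735 of them matched by gene identifier to RefSeq; 1801 probe sets with several genes and 62 control probe sets were not used for genes. A gene was read by its probe set in the brightest class, then by one without a letter suffix, then by identifier. Every member is named; of each other list, the 4 genes with the smallest p are named. The members and lists were chosen with earlier results of these data known, and the limit of 0.5 log2 after values were seen.

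The groups were fitted in R 4.3.3 with limma 3.58.1 (two-sided, Benjamini-Hochberg over all genes, threshold 0.05), 2 arrays against 2, and with 3 groups for each siRNA, where the spread comes from the 2 controls. The limma steps were tested on simulated data. With 2 arrays a group the smallest two-sided p of an exact permutation test is 0.33, and such tests were not run. Alternatives covered the probe set rule, dim genes, normalization, moderation, a replicate block and leaving out each array. Promoter sequences are from RefSeq (GRCh38.p14).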

Additional observations from a re-analysis of the deposited data

Results flagged for a closer look

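Of the 31 genes, 9 are listed because the difference between the siRNAs passed limma's test over all genes in the model with 3 groups. In that model each siRNA has 1 array, whose spread is taken from the 2 controls. With siRNA-2 minus siRNA-1, CPS1 read 1.12, GSTZ1 1.06 and HAAO 0.78. The remaining differences were -0.92 for ARG2, -0.83 for GOT2, -0.89 for FAH, -1.04 for KYNU, -0.91 for ALDH4A1 and -1.10 for BCAT1. On the chosen probe sets of CPS1, ARG2 and BCAT1 both siRNAs lay on the same side of the controls and siRNA-2 further out. The other probe sets of CPS1 and ARG2 showed the same, but those of BCAT1 did not all do so. BCAT1 probe sets also at 8 or above read 0.11 and 0.27 with siRNA-1, and -0.59 and -0.44 with siRNA-2. For FAH, KYNU and ALDH4A1 the siRNAs lay on opposite sides of the controls on the chosen probe sets. With quantile normalization of the arrays 0 of the 9 passed, and the share of all genes that passed there is not given.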

How the results depend on the processing

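Over 12 alternatives, 331 of 365 single-gene values kept their direction and their side of the threshold. A further 13 passed the threshold only there, and 21 reversed, in 13 genes. Robust moderation, the replicate block, leaving out dim genes and testing probe sets one by one cannot change a difference. The count of 331 is thus partly fixed by construction and is no measure of robustness. The limits are the 2 arrays per group, the centring that removed levels, and the larger spread of the siRNA-2 array. Where no cause is given below, the cause was not tested.

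Between knockdown and control, the number of genes past the threshold, 1 in the reported fit, was 0 with the mean of all probe sets, with all probe sets tested one by one, without dim genes and with robust moderation. With quantile normalization it was 405, and 1 member passed, CPS1 (1.14, adjusted p = 0.0391). That setting gives all arrays the same spread by construction. It left 0 members higher and 0 lower with siRNA-2, and 0 higher and 0 lower between the siRNAs. The shares of all genes in these siRNA comparisons are not given for that setting. The counts of 0 thus say nothing particular about the set.

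Leaving out 1 array at a time gave 0 to 4781 genes and 0 to 12 members past the threshold. The high ends came without the siRNA-1 array, which leaves siRNA-2 against the controls. Members above both controls numbered 14 to 20 and members below them 7 to 15. The highest counts came without siRNA-2 and without siRNA-1, respectively. With an array left out, every gene meets these rules more easily. The shares of all genes in these settings are not given, so the counts say nothing particular about the set. The medians ran from -0.01 to 0.13 for the set, -0.07 to 0.17 for the urea cycle, -0.11 to 0.09 for tryptophan and -0.45 to 0.04 for histidine and proline. Single genes that changed sign were ASL (-0.20 to 0.11), SLC25A15 (-0.27 to 0.17), GLUL (-0.02 to 0.03), GPT (-0.18 to 0.13), FAH (-0.26 to 0.62), KYNU (-0.80 to 0.24), ALDH4A1 (-0.47 to 0.44) and BCKDHB (-0.01 to 0.17). Each of these reversed without a knockdown array, and GLUL and GPT also without control 1 and ALDH4A1 without control 2.

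With the mean of all probe sets of a gene, the medians were 0.06 for the urea cycle, 0.16 for glutamine and glutamate, 0.02 for tyrosine, 0.03 for tryptophan and 0.25 for the branched-chain genes. ARG1 (0.06), TAT (0.02), HGD (-0.09), KMO (0.02), ALDH4A1 (0.08) and BCAT2 (0.33) then changed sign, and 6 members read higher under siRNA-2 than siRNA-1 past the threshold. Without probe sets that can share probes, the median was -0.25 for glutamine and glutamate and 0.05 for tryptophan, and 3 members read lower under siRNA-2 than siRNA-1 past the threshold. With quantile normalization the median was 0.10 for the set and -0.01 for tryptophan, and ASL (0.00), SLC25A15 (0.02), GPT (0.02) and ALDH4A1 (0.12) changed sign. Without dim genes 4 members rose with siRNA-1, and 5 read higher under siRNA-2 than siRNA-1. With array medians set to 0, 4 rose with siRNA-1. For the member counts between the siRNAs, the shares of all genes in these settings are not given. Those counts thus say nothing particular about the set.

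The replicate numbers of the titles were tried as a block. The difference between replicates 1 and 2 of the controls correlated at 0.03 over genes with that of the knockdown arrays. The knockdown difference is also the difference between the siRNAs, so this value cannot show whether same-numbered arrays were paired. With the replicate block 0 genes and 0 members passed, and the median difference of the set was 0.05.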
